A study of Homo sapiens with 10 samples.

Results

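The CXC chemokine genes are described here in HaCaT cells, an immortalised human keratinocyte line, that received LBP, a polysaccharide-glycoprotein of Lycium barbarum (wolfberry), or vehicle, with or without ionising radiation. Members were chosen by gene symbol, and 10 of the 22003 features in the deposited table matched (CXCL1, CXCL2, CXCL3, CXCL5, CXCL6, CXCL8, CXCL10, CXCL11, CXCL14 and CXCL16). The family was taken up with its values after LBP in irradiated cells already known, CXCL6 and CXCL1 being among the lowest there, so that comparison is given below as a description without a p-value.

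All libraries came from wild-type HaCaT cells grown in serum-containing medium, and the labels also give mucosa as the source. The 4 groups were vehicle without radiation (n = 2), LBP without radiation (n = 2), vehicle before 12 Gy (n = 3) and LBP before 12 Gy (n = 3). LBP or vehicle was present for 24 h before the 12 Gy dose, and RNA was taken 3 h after it, so 1 time point and 1 dose were sampled. The LBP concentration is not given in the sources used here. Nothing in the labels says that the repeats were separate cultures, so the tests measure the spread between these libraries, which may be technical.

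CXC chemokines are small secreted proteins that attract leukocytes by binding G protein-coupled receptors. Those with a glutamate-leucine-arginine (ELR) motif, CXCL1, CXCL2, CXCL3, CXCL5, CXCL6 and CXCL8, draw neutrophils through CXCR1 and CXCR2, and keratinocytes release them when interleukin 1, tumour necrosis factor or microbial products activate the transcription factor NF-kB. CXCL10 and CXCL11 are induced by interferons and recruit T cells through CXCR3, CXCL14 is a constitutive chemokine of healthy skin, and CXCL16 is made as a membrane-anchored protein that binds CXCR6 and is released by cleavage.

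The 6 ELR members lay together on chromosome 4 (GRCh38, GENCODE v29 gene models) between 73740506 and 74099293, a span of 358.8 kb. CXCL10 and CXCL11 lay in a second cluster of 40.1 kb on the same chromosome, between 76001275 and 76041415, with CXCL9. CXCL14 is on chromosome 5 (135570679 to 135579279) and CXCL16 on chromosome 17 (4733526 to 4739922). ART3 overlaps CXCL10 and CXCL11 on the other strand and MED11 overlaps CXCL16 on the other strand. The strand setting of the counting is not given in the sources used here, so reads of these pairs cannot be told apart. CXCL2 and CXCL3 shared identical transcript stretches of 100 bases (5% of the stretches of CXCL2 and 3.27% of those of CXCL3), the only such overlap among the members, so their low counts are uncertain in how reads were split.

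The promoters of the ELR and interferon-induced members are shown because a 9-base core resembling the NF-kB site, GGAATTTCC or its reverse complement, recurred in them. Each line gives 30 bases on the gene's own strand, 5′ to 3′, from RefSeq (GRCh38.p14), with the matched core in capitals.
CXCL8: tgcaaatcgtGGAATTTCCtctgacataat
CXCL6: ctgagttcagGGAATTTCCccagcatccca
CXCL5: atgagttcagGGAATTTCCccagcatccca
CXCL1: tggaactccgGGAATTTCCctggcccgggg
CXCL3: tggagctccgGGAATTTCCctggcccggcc
CXCL2: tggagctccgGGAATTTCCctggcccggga
CXCL10: aggagcagagGGAAATTCCgtaacttggag
CXCL11: actcaaagagGGAAATTCCtgtgccataaa

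The CXCL6 window is chr4:73836579-73836608 on the plus strand, inside the longer GENCODE gene model of CXCL6, and that of CXCL1 is chr4:73869305-73869334 on the plus strand. The CXCL8 window is chr4:73740468-73740497 on the plus strand. The CXCL10 window is chr4:76023654-76023683 on the minus strand. The windows of CXCL6 and CXCL5 were identical at 29 of 30 bases, and those of CXCL1, CXCL2 and CXCL3 at 27 or 28 of 30, whereas CXCL6 and CXCL1 matched at 17 of 30. The core began 75 to 91 bases before the RefSeq start in CXCL11 and the ELR members and 176 bases before it in CXCL10.

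Of the 10 members, 9 had a RefSeq promoter window (250 bases before to 50 after the start), and 8 of the 9 held GGAATTTCC on either strand, against 0.461% (162) of all 35116 windows. The broader kappaB consensus, which overlaps this core, was found in 7 of 9 against 5.91% of all windows. The AP-1 motif TGANTCA was found in CXCL8, CXCL11 and CXCL14, against 7.71% of all windows. CXCL10 alone held the paired motif GAAANNGAAA of interferon response elements, against 3.57% of all windows, and the antioxidant response core TGACNNNGC, against 13.3%. These 5 motifs were chosen after the windows had been read, both strands were searched, and a match is a match of letters only. The paired interferon motif of CXCL10 is shown in capitals below, at chr4:76023699-76023728 on the minus strand.
CXCL10: tcatgttttgGAAAGTGAAAcctaattcac

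**Figure D1:**
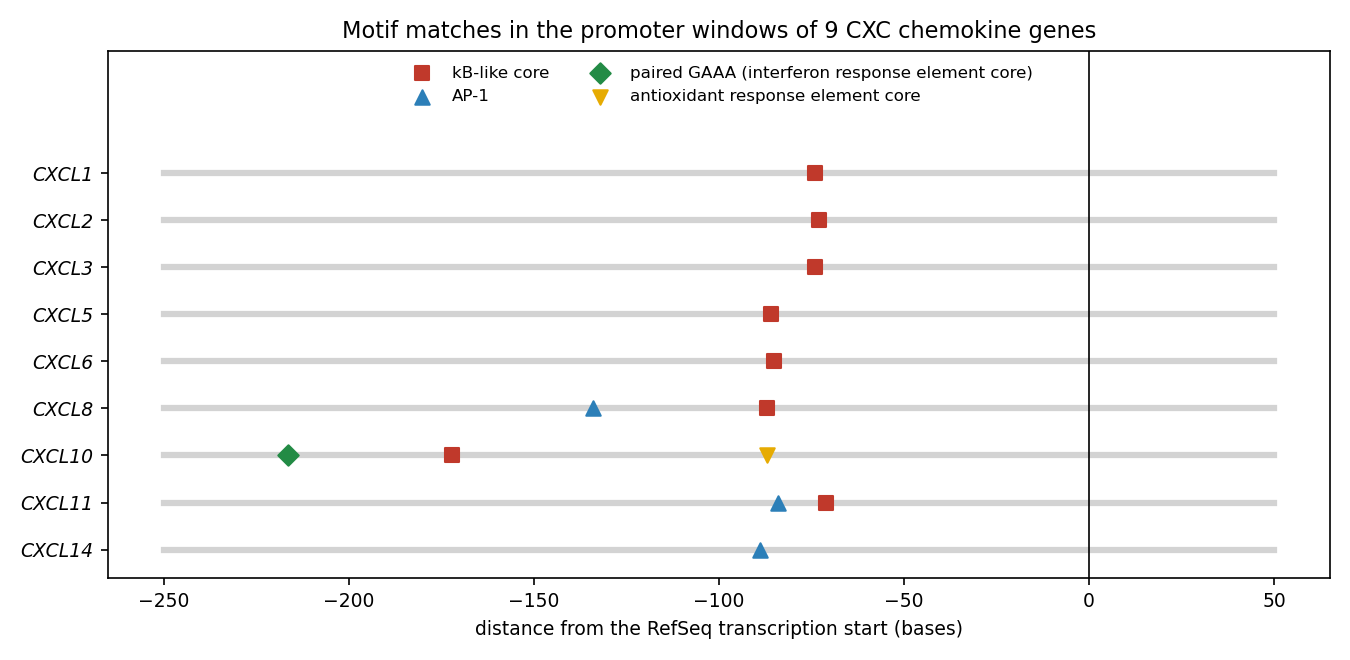
Motif matches in the RefSeq promoter windows of 9 members. The horizontal axis is the distance in bases from the transcription start, grey lines are the windows from 250 bases before to 50 after it, and each symbol is the centre of a match on either strand. The NF-kB-like core (squares) lies near the same distance in the ELR members and CXCL11 and farther out in CXCL10, and CXCL14 has none in this window.

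Total counts per library ran from 31830506 to 62986831, and a floor of 3 counts corresponded to 0.0476 to 0.0942 CPM (counts relative to the TMM-scaled library total). Of the counts from 1 to 10, 59.7% were even, so both mates of some pairs may have been counted, in which case the floor is 6 counts. Keratinocyte markers summed to between 10260 and 13806 CPM in every library (KRT5 and KRT14 had the highest mean CPM), and the sums of LBP libraries (12053 to 13806) lay above those of vehicle libraries (10260 to 11998). In irradiated cells TP63 and DSG3 were called higher with LBP, 2 of 8 keratinocyte markers against 2.79% of all features called higher there, and the calls were lost in 5 (TP63) and 2 (DSG3) of 19 alternative settings. The 6 fibroblast markers summed to 4.99 to 7.29 CPM, mostly COL1A1, with DCN at 0 in all libraries. The 6 leukocyte markers summed to 1.81 to 3.05 CPM, the 4 endothelial markers to 1.66 to 3.44 CPM with PECAM1 and TEK at 0, and the 4 melanocyte markers to 0.637 to 1.27 CPM with TYR at 0. Their part in the chemokine results was not tested. In bulk RNA, fewer cells of a type and less RNA per cell cannot be told apart.

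Level per length was read from the deposited FPKM, the fragments per kilobase of transcript scaled to the library's mapped total. CXCL16 stood highest, with 51.2 to 62.6 FPKM over the 10 libraries and a median of 57.8. CXCL1 followed with a median of 14.4 FPKM (6.24 to 31.9), then CXCL8 with 11.7 FPKM (5.18 to 21.9) and CXCL6 with 6.38 FPKM (2.89 to 9.73). The ranges of these last 3 overlapped, while the lowest CXCL16 library lay above the highest CXCL1 library. CXCL3 (median 0.622 FPKM), CXCL11 (0.581 FPKM), CXCL10 (0.393 FPKM) and CXCL2 (0.145 FPKM) formed a lower tier in which neighbours in this order overlapped, while every CXCL2 library (0.0427 to 0.297 FPKM) lay below every CXCL11 library (0.336 to 0.821 FPKM). By CPM per kilobase of annotated exon, CXCL11 and CXCL10 came before CXCL3, and the other 7 members kept their ranks.

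CXCL5 was close to the limit of detection, with counts of 0 and 7 in vehicle, 4 and 0 in LBP, 8, 10 and 8 in irradiated vehicle, and 2, 0 and 2 in irradiated LBP libraries. CXCL14 had at most 3 counts in any library and none in 7 of them. Neither passed the filter on low counts, so 8 of the 10 members were tested. CXCL1, CXCL6 and CXCL8 together made up 92.6% to 98.4% of the summed FPKM of the ELR members in each library. Of 7 further CXC chemokine genes, 5 were at 0 counts throughout, CXCL9 had 0 to 4 counts and PPBP 0 to 2. The platelet chemokine genes PF4V1, PF4 and PPBP, which lie within the ELR cluster, were thus at or near 0 beside CXCL1 and CXCL6.

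**Figure D2:**
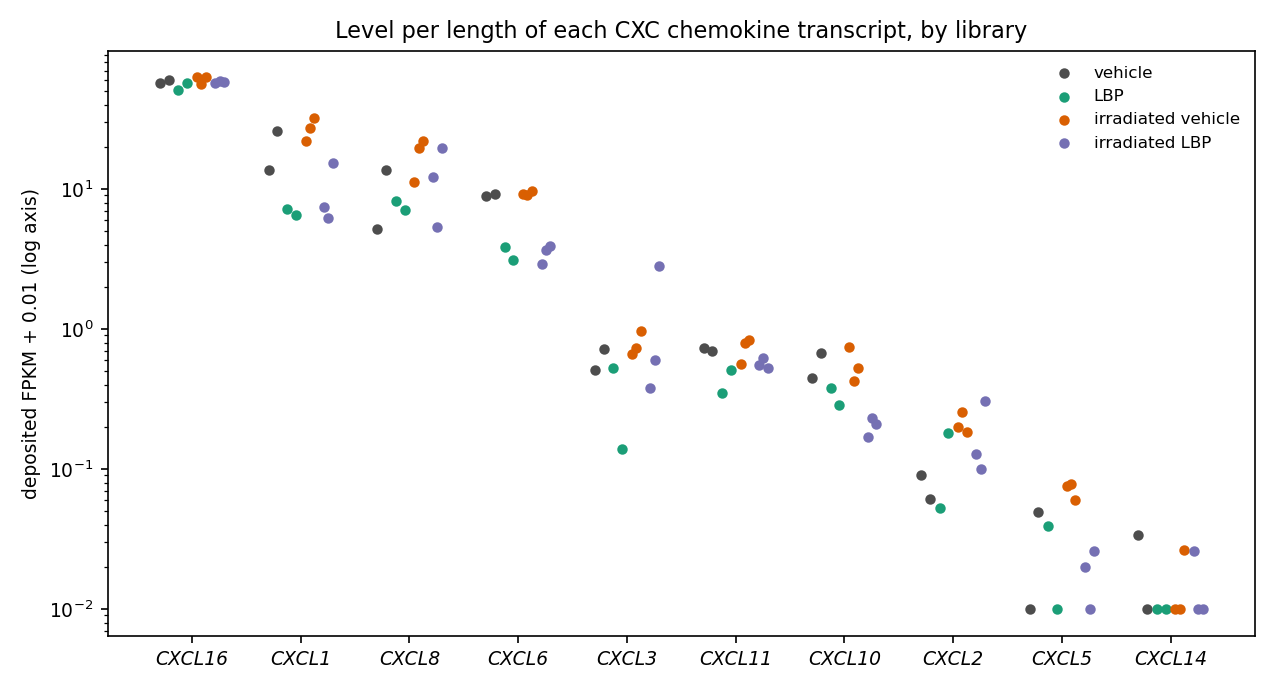
Level per length of each member in each library. The vertical log axis is deposited FPKM plus 0.01, each point is a library and colours are the 4 groups. CXCL16 lies above the others, CXCL1, CXCL8 and CXCL6 form a middle tier, and CXCL5 and CXCL14 lie at the bottom with several libraries at 0.

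LBP without radiation is the comparison that shares no library with the one the family was chosen on, and it asks what LBP alone did to these transcripts. Its standard errors and p-values still come from the fit over all 10 libraries. The irradiated libraries thus enter the estimate of spread, and the test is not fully independent of that choice. CXCL6 was lower in both LBP libraries by 2.54-fold, and it was the only member called. CXCL1, CXCL10 and CXCL11 also had both LBP libraries below both vehicle libraries, but their differences did not pass the test over all features. The share of all features that separate in this way was not computed, so nothing is read from that separation. CXCL16 and CXCL8 differed by less, and CXCL2 had the only positive difference.

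CXCL6, a neutrophil attractant also known as granulocyte chemotactic protein, measured 14.8 and 15.5 CPM in vehicle libraries and 6.54 and 5.36 CPM in LBP libraries. The groups did not overlap, and the replicates of each group were close (CV 3.38% in vehicle and 13.99% in LBP). The log2 fold change was -1.35 ± 0.14 (SE; edgeR's quasi-likelihood test, Benjamini-Hochberg adjusted p = 0.000526), and it was called under all 19 alternative settings, with log2 values from -1.51 to -1.17 and adjusted p up to 0.0145.

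CXCL1, the growth-regulated oncogene alpha and a ligand of CXCR2, measured 18.1 and 34.7 CPM in vehicle and 9.92 and 9.01 CPM in LBP libraries. In CPM the vehicle libraries were farther from each other than the lower one was from the LBP libraries. The log2 fold change was -1.49 ± 0.38, which failed the correction (edgeR adjusted p = 0.114). It was called in 4 of 19 alternative settings, among them the fit without irradiated LBP replicate 3 (adjusted p = 0.0215), a library outside this comparison that enters the shared estimate of spread.

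CXCL8, or interleukin 8, measured 9.37 and 25.0 CPM in vehicle and 15.5 and 13.1 CPM in LBP libraries, so the LBP libraries lay between those of vehicle. Its log2 fold change of -0.28 ± 0.54 (95% interval -1.44 to 0.89) left both directions possible, and it was 0.61 without vehicle replicate 2. CXCL3, a close relative of CXCL1 and CXCL2, measured 0.632 and 0.875 CPM in vehicle and 0.671 and 0.187 CPM in LBP, a log2 fold change of -0.83 ± 0.85. CXCL2 measured 0.105 and 0.0796 CPM in vehicle and 0.0746 and 0.234 CPM in LBP, from 3 to 10 counts per library, a log2 fold change of 0.77 ± 0.77 that was -0.27 without LBP replicate 2. No difference in CXCL2, CXCL3 or CXCL8 was detectable at this depth and spread.

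CXCL11 measured 1.24 and 1.16 CPM in vehicle and 0.597 and 0.890 CPM in LBP (log2 fold change -0.68 ± 0.31, edgeR adjusted p = 0.361). CXCL10 measured 0.605 and 0.891 CPM in vehicle and 0.522 and 0.398 CPM in LBP (-0.72 ± 0.38, edgeR adjusted p = 0.442). Neither difference of these interferon-induced genes passed the test. CXCL16 measured 131.8 and 138.4 CPM in vehicle and 122.0 and 132.4 CPM in LBP, and the 95% interval of its log2 fold change, -0.25 to 0.08, bounded any change to less than that of CXCL6.

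In all, 1 of the 8 tested members was called, against 0.804% of the 14799 features tested. An unadjusted p under 0.05 was reached by 3 of the 8, against 2003 of the 14799 features. Of the 8 differences 7 were negative, and the share of negative differences over all features was not computed. The median log2 fold change of the 8 was -0.70, against 0.01 over all features tested.

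**Figure D3:**
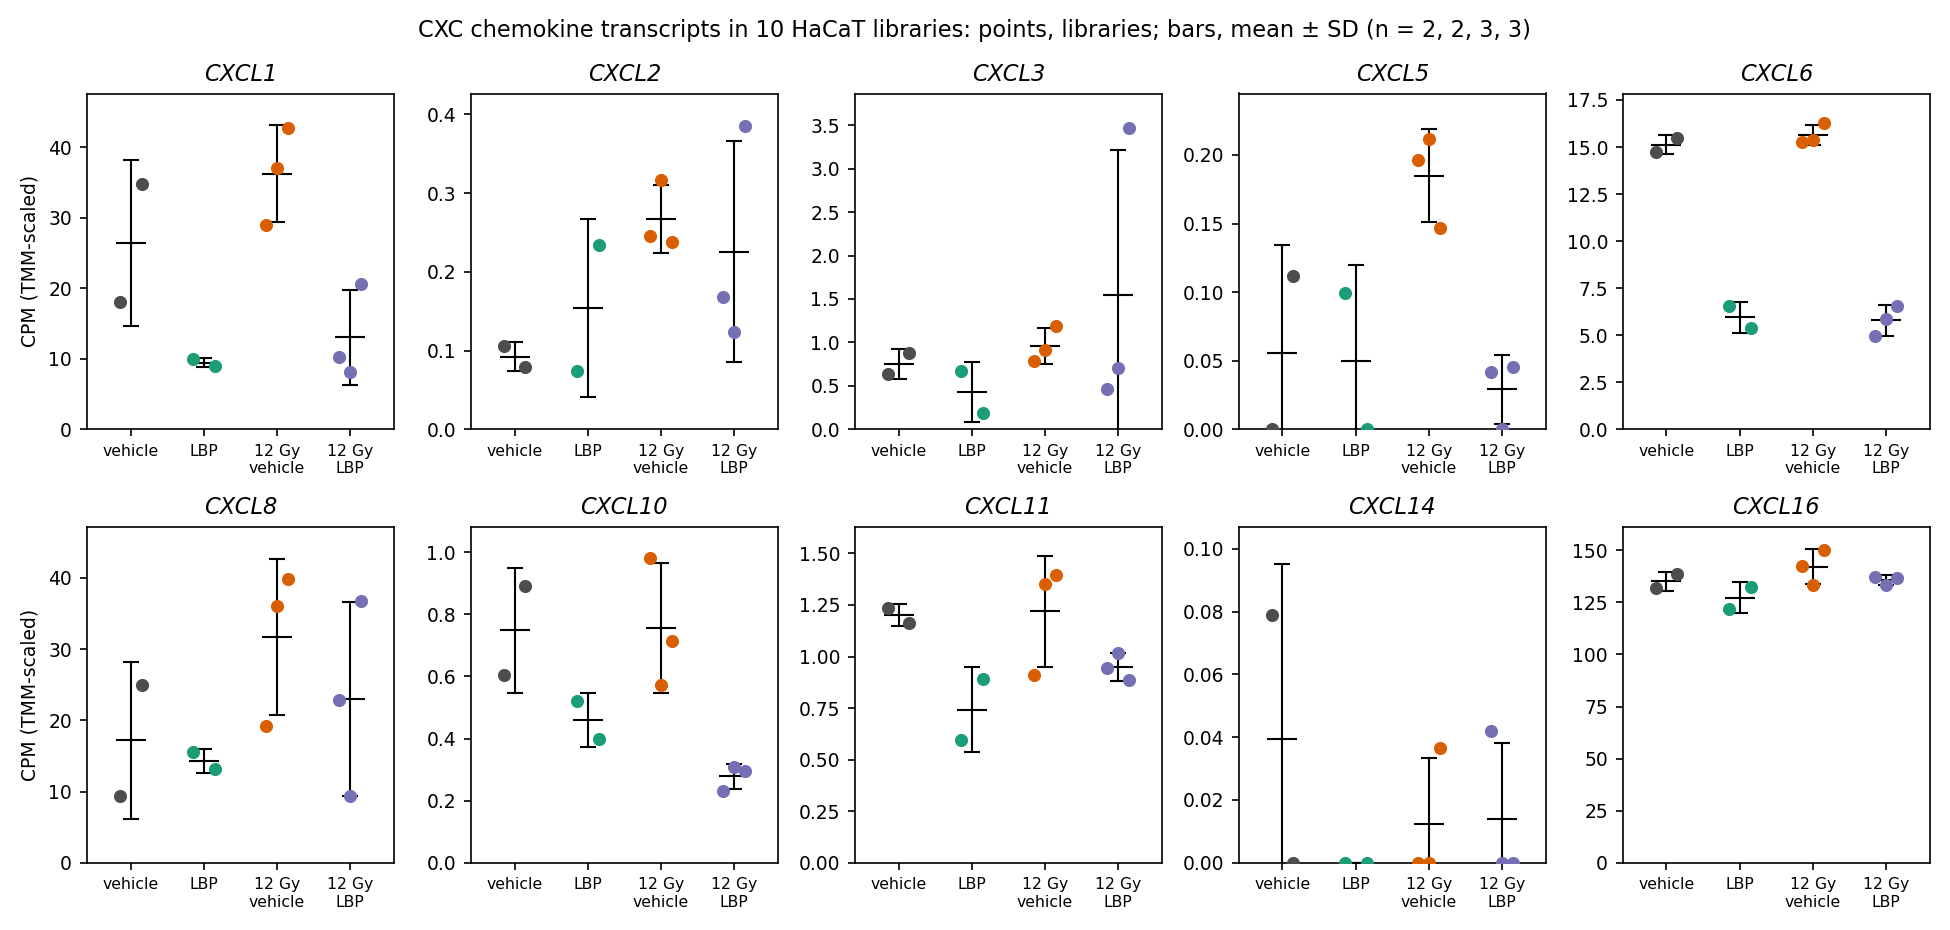
CPM of the 10 members in the 4 groups. Points are libraries, horizontal marks the group mean and bars the SD (n = 2, 2, 3 and 3; a bar reaching below 0 is clipped at the axis), and each panel has its own vertical scale from 0. CXCL6 separates LBP from vehicle libraries in both radiation states, CXCL8 and CXCL3 overlap, and CXCL16 varies little.

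LBP before 12 Gy is the comparison whose values were known when the family was taken up, so its values are a description. CXCL6 measured 15.3, 15.4 and 16.3 CPM in irradiated vehicle and 4.94, 5.85 and 6.55 CPM in irradiated LBP libraries, a log2 fold change of -1.44 ± 0.12, or 2.71-fold lower. CXCL1 measured 29.03, 37.0 and 42.7 CPM in irradiated vehicle and 10.3, 8.17 and 20.6 CPM in irradiated LBP, a log2 fold change of -1.47 ± 0.31. For both genes every LBP library lay below every vehicle library, and irradiated LBP replicate 3 was the highest of its group. The share of all features that separate in this way was not computed for irradiated cells. Nothing is read from such separation, here or for CXCL10 below.

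CXCL10 measured 0.982, 0.571 and 0.715 CPM in irradiated vehicle and 0.231, 0.308 and 0.295 CPM in irradiated LBP, from 10 to 13 counts per LBP library. Its log2 fold change was -1.44 ± 0.34 and its groups did not overlap, but the call was lost in 9 of 18 alternative settings with a value, among them every fit without 1 of the 6 irradiated libraries. CXCL11 measured 0.909, 1.35 and 1.39 CPM in irradiated vehicle and 0.946, 1.02 and 0.884 CPM in irradiated LBP, a log2 fold change of -0.37 ± 0.25 with overlapping groups.

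CXCL8 measured 19.3, 36.1 and 39.8 CPM in irradiated vehicle and 22.9, 9.43 and 36.7 CPM in irradiated LBP, a log2 fold change of -0.46 ± 0.43. CXCL3 measured 0.786, 0.910 and 1.19 CPM in irradiated vehicle and 0.462, 0.709 and 3.47 CPM in irradiated LBP. The single library at 3.47 CPM, irradiated LBP replicate 3, set its direction: the log2 fold change was 0.69 ± 0.62 with that library and -0.74 without it. CXCL2 measured 0.246, 0.317 and 0.238 CPM in irradiated vehicle and 0.168, 0.123 and 0.385 CPM in irradiated LBP, a log2 fold change of -0.21 ± 0.52 in which the same library was again the highest.

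CXCL5, which was not tested, had 8 to 10 counts in irradiated vehicle and 0 to 2 in irradiated LBP libraries. CXCL16 measured 142.5, 133.5 and 150.3 CPM in irradiated vehicle and 137.2, 133.2 and 136.8 CPM in irradiated LBP, a log2 fold change of -0.07 ± 0.06. Of the 8 tested members, 3 (CXCL1, CXCL6 and CXCL10) were called lower and none higher, against 1.57% of features called lower, and the members' median was -0.41 against 0.01 over all features. Only 1 of the 8 was called without irradiated vehicle replicate 2, irradiated vehicle replicate 3 or irradiated LBP replicate 1. That comparison chose the family, so nothing is read from these counts.

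**Figure D4:**
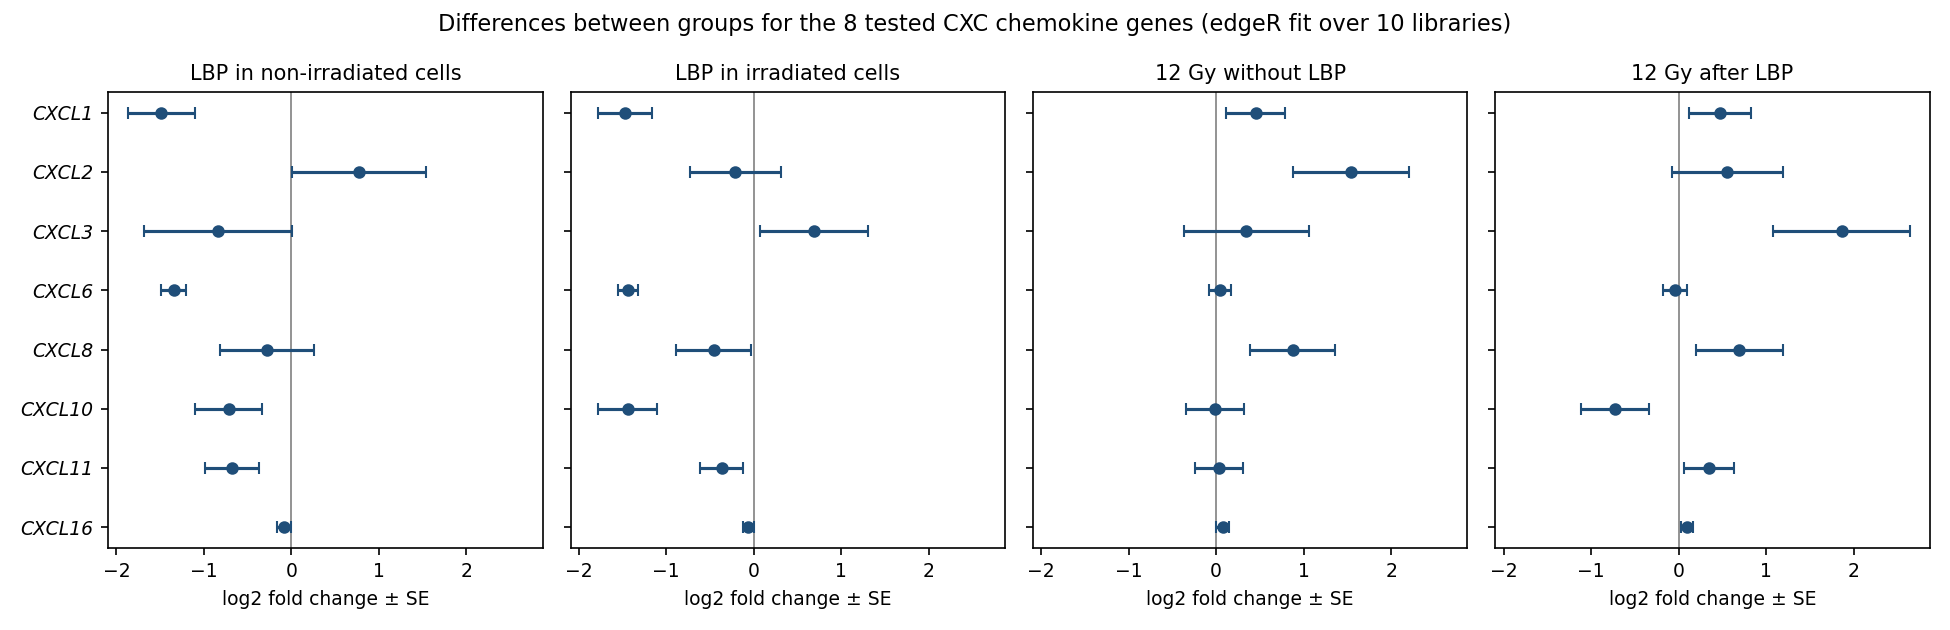
Log2 fold change of the 8 tested members in 4 comparisons. Points are edgeR estimates from 1 fit over the 10 libraries and bars are ± SE. CXCL6 and CXCL1 lie near -1.4 for LBP in both radiation states, and CXCL6 and CXCL16 have the shortest bars.

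Radiation without LBP asks how the family stood 3 h after 12 Gy, and shares the irradiated vehicle libraries with the comparison that chose the family. No member was called by edgeR (0 of 8, against 0.439% of features), nor by DESeq2 or limma. An unadjusted p under 0.05 was reached by 1 of 8, CXCL2, against 1022 of the 14799 features. CXCL2 was above both vehicle libraries in all 3 irradiated vehicle libraries, 0.246, 0.317 and 0.238 CPM against 0.105 and 0.0796 CPM, on 4 to 15 counts per library (log2 fold change 1.54 ± 0.66, edgeR adjusted p = 0.692). Its vehicle counts (4 and 5) were under the filter's minimum of 10, which the irradiated vehicle counts (10, 15 and 13) reached. CXCL2 thus passed the filter mainly through the group where it was high, so nothing is read from its difference. CXCL8 had a log2 fold change of 0.87 ± 0.49 (edgeR adjusted p = 0.785) and CXCL1 of 0.45 ± 0.33 (edgeR adjusted p = 0.858), and in both the irradiated libraries overlapped the vehicle libraries. Leaving out 1 vehicle library moved the CXCL8 value to 0.34 (without replicate 1) or 1.77 (without replicate 2), and that of CXCL1 spanned 0.06 to 1.02 over the fits with 1 library left out.

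CXCL6 did not move by a detectable amount: its log2 fold change was 0.05 ± 0.13, with a 95% interval of -0.22 to 0.32 that lies well short of its LBP difference. CXCL16 was at 0.07 ± 0.07, CXCL11 at 0.03 ± 0.27, CXCL10 at -0.01 ± 0.33 and CXCL3 at 0.34 ± 0.72. The sign of the CXCL10 and CXCL11 values changed with the unit or the library left out, and that of CXCL10 also with the scaling. The members' median was 0.21, against 0.00 over all features.

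Radiation after LBP gave no called member by edgeR (0 of 8, against 0.142% of features) or limma. DESeq2 called none of CXCL1, CXCL6, CXCL8 and CXCL16. It gave no adjusted p for CXCL2, CXCL3, CXCL10 and CXCL11, so it could not call those. CXCL3 alone of the 8 had an unadjusted p under 0.05, as 2003 of the 14799 features did. Its log2 fold change of 1.86 ± 0.78 (edgeR adjusted p = 0.332) fell to 0.44 without irradiated LBP replicate 3. CXCL8 was at 0.69 ± 0.50, CXCL2 at 0.56 ± 0.63, CXCL1 at 0.47 ± 0.35 and CXCL11 at 0.35 ± 0.29. CXCL10 was lower in all 3 irradiated LBP libraries than in both LBP libraries, at -0.73 ± 0.39 (edgeR adjusted p = 0.426). CXCL16 was higher in all 3 irradiated LBP libraries than in both LBP libraries by 0.09 ± 0.07 on the log2 scale (edgeR adjusted p = 0.575). The share of all features that separate in this way was not computed here either, so nothing is read from the separation of CXCL10 or CXCL16. CXCL6 stayed within -0.33 and 0.25 (95% interval around -0.04). The members' median was 0.41, against 0.00 over all features, and it rests on the irradiated LBP libraries of the comparison that chose the family.

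The interaction term compares the LBP differences with and without radiation, and as it contains the comparison that chose the family its values are a description. None of the 8 members was called by edgeR, DESeq2 or limma, against 0.0135% of features (2), and nothing is read from that count. An unadjusted edgeR p under 0.05 was reached by none of the 8, against 1213 of the 14799 features. Of the members only CXCL6 was followed by value through the alternative settings here, so missing DESeq2 adjusted p-values are not recorded for the others. For CXCL6 the LBP difference with radiation minus that without was -0.09 ± 0.18 on the log2 scale. The standard error of this term ran from 0.10 for CXCL16 to 1.05 for CXCL3.

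The members differed in how well libraries of 1 group matched. CXCL16 varied least, with a CV of 1.62% to 5.91% over the 4 groups, followed by CXCL6 with 3.38% to 13.99%. CXCL10 ran from 14.8% to 27.6% and CXCL11 from 4.42% to 27.9%. CXCL1 ran from 6.77% to 51.3%, CXCL8 from 11.9% to 64.3%, CXCL2 from 16.3% to 73.1% and CXCL3 from 21.6% to 107.9%, so the order of the members differed between groups. Between libraries of the same group CXCL1 and CXCL8 moved together: the correlation of their log2 deviations from the group mean was 0.93 over the 10 libraries. That of CXCL3 with CXCL6 was 0.92, that of CXCL1 with CXCL3 was 0.78 and that of CXCL1 with CXCL6 was 0.56, while CXCL10 and CXCL11 gave -0.72. These correlations describe 10 libraries that share preparation and depth within themselves and are given without a test. In a group of 2 libraries the deviations mirror each other, so the 10 points hold only 6 degrees of freedom. Irradiated LBP replicates 2 and 3 lay farthest from their group mean for CXCL1 (-0.55 and 0.78) and CXCL8 (-1.07 and 0.88).

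**Figure D5:**
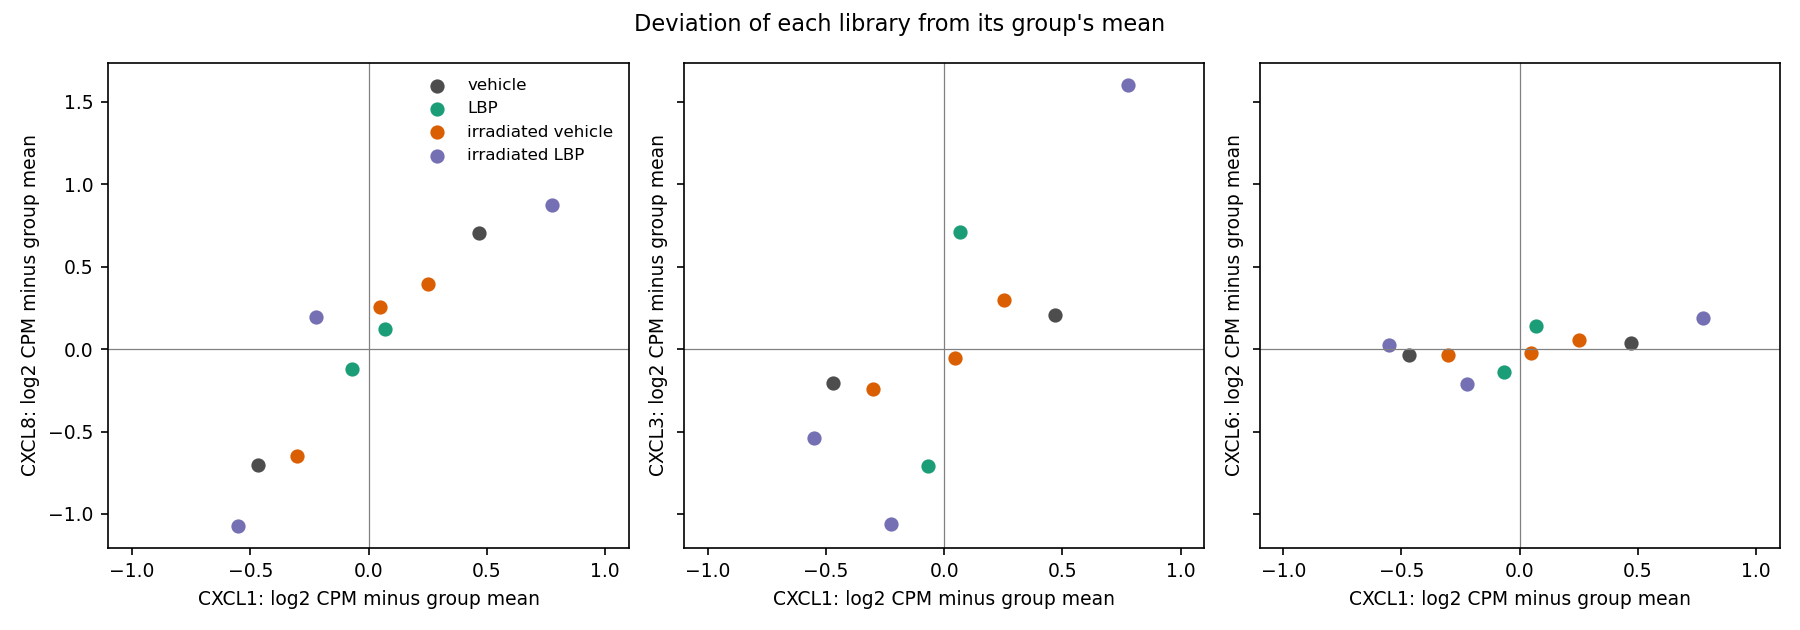
Deviation of each library from its group mean in log2 CPM, for CXCL8, CXCL3 and CXCL6 (vertical axes) against CXCL1 (horizontal axes). Points are the 10 libraries, coloured by group. CXCL8 and CXCL1 rise together (r = 0.93), while CXCL6 deviates little on the same scale.

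As a summary of the neutrophil attractants, the mean of the centred log2 CPM of the 5 tested ELR genes was -0.24 and 0.28 in vehicle, -0.53 and -0.76 in LBP, 0.32, 0.66 and 0.76 in irradiated vehicle, and -0.46, -0.68 and 0.66 in irradiated LBP libraries. Irradiated LBP replicate 3 thus stood with the irradiated vehicle libraries on this mean, although its CXCL6 (6.55 CPM) was at the level of the other LBP libraries. Among 10155 other genes, the 6 whose log2 CPM followed this mean most closely over the 10 libraries were MMD (r = 0.96), CGAS (0.95), FAM131A (0.94), BIRC3 (0.92), PPFIA3 (0.92) and HCAR2 (0.92). Within groups their correlations were 0.84 to 0.93. The 6 were picked on these same libraries, so the within-group values are no second check. Irradiated LBP replicate 3 stood apart from its group on the mean (0.66 against -0.46 and -0.68), and correlations without that library were not computed.

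The 3′ untranslated regions of the members were searched for TATTTAT, a core of the AU-rich elements through which cytokine mRNAs are marked for decay. It occurred 8 times in CXCL2, 4 times each in CXCL1 and CXCL8, and 3 times each in CXCL3 and CXCL5. As many copies were found in 0.0483% (CXCL2), 0.532% (CXCL1), 0.818% (CXCL8), 1.04% (CXCL3) and 5.19% (CXCL5) of 3′ untranslated regions within 20% of the same length. CXCL6, CXCL10, CXCL11, CXCL14 and CXCL16 held no TATTTAT. By number of copies the shorter core ATTTA did not set CXCL6 apart from the other ELR members. It occurred 6 times in CXCL6, 5 in CXCL1, 7 in CXCL3, 9 in CXCL8, 10 in CXCL2 and 11 in CXCL5. CXCL10, CXCL11, CXCL14 and CXCL16 held 1 each. Among regions of similar length, as many copies were found in 11% for CXCL6, the largest share of the ELR members. The shares were 5.42% (CXCL1), 5.01% (CXCL5), 2.55% (CXCL8), 0.79% (CXCL3) and 0% (CXCL2). These are matches of letters, and mRNA stability was not measured.

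Transcripts of the receptors were scarce: CXCR1, CXCR3, CXCR4 and CXCR6 had at most 8 counts in any library, and CXCR2, the receptor of the ELR chemokines, had 8 to 41. Of 10 CXC and atypical receptors 3 were tested, and only ACKR3, a decoy receptor that takes up CXCL11 and CXCL12, was called, higher with LBP in irradiated cells as 2.79% of all features were. ACKR3 was 3.11 ± 0.67 CPM (SD, n = 3) in irradiated vehicle and 6.31 ± 1.12 CPM (SD, n = 3) in irradiated LBP (log2 fold change 1.02 ± 0.22, edgeR adjusted p = 0.0255), and the call was lost without irradiated vehicle replicate 2 or 3 or irradiated LBP replicate 2 or 3 and in all 3 limma settings (adjusted p up to 0.11). For LBP without radiation the log2 fold change was 0.515 ± 0.27 in ACKR3 (edgeR adjusted p = 0.427) and -1.04 ± 0.45 in CXCR2 (edgeR adjusted p = 0.338).

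Proteases that cleave chemokines gave 2 of 9 tested genes called higher with LBP in irradiated cells, against 2.79% of all features, and none in the other comparisons. ADAM17, a sheddase that can release membrane-anchored chemokines, was 54.4 ± 3.53 CPM (SD, n = 3) in irradiated vehicle and 73.1 ± 3.67 CPM (SD, n = 3) in irradiated LBP (log2 fold change 0.43 ± 0.08, edgeR adjusted p = 0.0167). Its call was lost without irradiated vehicle replicate 1 or 3 or irradiated LBP replicate 1 and with limma on log2(FPKM + 1) without the filter (adjusted p up to 0.085). CTSL, a lysosomal protease, was higher by 0.38 ± 0.07 on the log2 scale (edgeR adjusted p = 0.0151; 0.0589 without irradiated vehicle replicate 3 and 0.0514 in the same limma setting). Without radiation the LBP differences of ADAM17 (0.27 ± 0.10, edgeR adjusted p = 0.275) and CTSL (0.32 ± 0.09, edgeR adjusted p = 0.132) had the same sign. The calls in irradiated cells thus do not show a difference between radiation states. ADAM10, the other main sheddase of CXCL16, was not called, nor was CXCL16.

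Of 17 NF-kB subunits and feedback genes, none was called in any comparison by edgeR, DESeq2 or limma. An unadjusted edgeR p under 0.05 was reached by none for LBP without radiation and by 1 for LBP in irradiated cells. For radiation without and after LBP it was reached by 3 and 4 of the 17. Over all 14799 features tested, such a p was reached by 2003 and 3205 for LBP without and with radiation. For radiation without and after LBP the counts over all features were 1022 and 2003. Nothing is read from the list counts here and below. The medians of the 17 were -0.08 for LBP without radiation and -0.01 for LBP with it. TNIP1 and TNFAIP3, inhibitors of NF-kB signalling, had the highest mean CPM of the 17, which is not per length. BIRC3, also in this list, was among the genes that most closely followed the ELR mean above (r = 0.92). NF-kB activity was not measured, so its part in the chemokine results was not tested. None of the 8 tested inducing cytokines was called by the same tools, IL1B and IL1A having the highest mean CPM. An unadjusted edgeR p under 0.05 was reached by 1 and 2 for LBP without and with radiation. For radiation without and after LBP it was reached by 0 and 3. The medians were 0.20 and 0.10 for LBP without and with radiation. None of the 11 regulators of cytokine mRNA decay, destabilising and stabilising, was called by edgeR or limma. HNRNPD and KHSRP had the highest mean CPM of the 11. DESeq2 called 1 of the 11 for LBP in irradiated cells and 1 for radiation without LBP. An unadjusted edgeR p under 0.05 was reached by 0 and 3 for LBP without and with radiation. For radiation without and after LBP it was reached by 1 and 3. The medians for LBP without and with radiation were -0.05 and 0.02. Of 15 cytokine receptors and adaptors, TLR2, which senses bacterial lipoproteins, was called lower with LBP in irradiated cells: 10.9 ± 0.30 CPM against 7.19 ± 0.30 CPM (SD, n = 3 each; 1.57% of all features were called lower), a log2 fold change of -0.60 ± 0.09 (edgeR adjusted p = 0.00418) that held in all 19 alternative settings. For LBP without radiation TLR2 was at -0.44 ± 0.11 and not called (edgeR adjusted p = 0.107).

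Of 21 interferon signalling genes and targets, SOCS1, a feedback inhibitor of cytokine signalling, was called higher with LBP in both radiation states, against 0.804% of all features called without radiation and 2.79% called higher with it. Without radiation it measured 2.11 ± 0.08 CPM in vehicle and 4.73 ± 0.80 CPM in LBP (SD, n = 2 each; log2 fold change 1.16 ± 0.17, edgeR adjusted p = 0.00762). That call was lost without either vehicle replicate or LBP replicate 1 (adjusted p up to 0.113). With radiation it measured 2.98 ± 0.20 and 5.03 ± 0.14 CPM (SD, n = 3 each; 0.75 ± 0.14, edgeR adjusted p = 0.0133), lost without irradiated vehicle replicate 1 or 2 (adjusted p up to 0.0665). The list's medians were -0.06 and -0.01, and none of its genes was called in the radiation comparisons.

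None of the 7 tested CC chemokines was called in any comparison by edgeR, DESeq2 or limma. At most 1 of the 7 had an unadjusted p under 0.05, to be set against the counts over all features given above. CCL2, the monocyte attractant, had the highest mean CPM, at 27.7 ± 4.95 CPM in vehicle and 11.0 ± 3.23 CPM in LBP (SD, n = 2 each), a log2 fold change of -1.33 ± 0.45 (edgeR adjusted p = 0.222), and at -0.98 ± 0.36 with radiation (edgeR adjusted p = 0.136). CCL5 came next, at -0.28 ± 0.18 and -0.12 ± 0.15 in the same comparisons.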

How the data were processed

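RNA-seq libraries from 10 HaCaT samples were aligned with HISAT2 to GRCh38, per the submitters' processing notes (counter and strand setting not given here). The authors deposited gene counts and FPKM values per library. Counts were tested with edgeR 4.0.16 (R 4.3.3): TMM scaling, filterByExpr with a minimum count of 10 (14799 of 22003 features kept), quasi-likelihood F tests in 1 fit with a mean per group over all 10 libraries (6 residual degrees of freedom), Benjamini-Hochberg adjustment over all tested features, and calls at an adjusted p under 0.05. Standard errors were taken from the F statistics. CPM are TMM-scaled, and intervals are 95%. The deposited FPKM gave levels per length and, as log2(FPKM + 1) or log2(FPKM + 0.1), the limma 3.58.1 alternatives; DESeq2 1.42.0 was another. The edgeR, DESeq2 and limma steps were run on simulated counts (limma on CPM). The simulation gave every gene the same dispersion and changed only well-counted genes, so it does not cover members with low counts or wide spread. Gene models came from GENCODE v29, promoters from RefSeq GRCh38.p14.

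The members and lists were chosen with earlier results of these data known. All members are named in every comparison; other lists are given by counts, with up to 4 called genes or the 2 highest, and the 6 most similar genes by Pearson r. Each LBP comparison shares libraries with each radiation comparison. Counting error sets the floor of 3 counts. Replicate numbers were not used as a block.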

Additional observations from a re-analysis of the deposited data

How the results depend on the processing

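Each result was recomputed under up to 19 alternatives; those for genes of other lists were chosen after seeing the data. Members called for LBP without radiation went from 1 to 2 with no filter, with only the 2 groups in the fit and with the replicate block, and from 1 to 2 over the fits with 1 library left out. Members called for LBP in irradiated cells went from 3 to 1 with limma on log2(FPKM + 1) without the filter, and to between 1 and 3 with 1 library left out. The other counts of members called stayed at 0.

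For radiation without LBP the sign changed with the replicate block for CXCL3 (-0.20), CXCL6 (-0.0119) and CXCL11 (-0.017), with library size scaling for CXCL10 (0.0141), and with limma for CXCL10 (0.0047 with FPKM + 1, with and without the filter, and 0.007 with FPKM + 0.1) and CXCL11 (-5e-04 with FPKM + 0.1). For radiation after LBP it changed for CXCL6 with library size scaling (0.0032) and limma (0.003 with FPKM + 1, with and without the filter, and 0.0028 with FPKM + 0.1). With 1 library left out, radiation without LBP spanned -0.25 to 0.32 for CXCL10 and -0.0773 to 0.20 for CXCL11. Radiation after LBP spanned -0.0239 to 0.71 for CXCL1, -0.0617 to 1.59 for CXCL2 and -0.18 to 0.11 for CXCL6. LBP without radiation spanned -0.27 to 1.34 for CXCL2 and -0.81 to 0.61 for CXCL8. LBP in irradiated cells spanned -0.84 to 0.0417 for CXCL2 and -0.74 to 1.13 for CXCL3. The CXCL6 interaction spanned -0.23 to 0.0619. None of these values was called, and the cause was not tested.

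Features called ran from 21 to 123 (65 as reported) for radiation without LBP, 7 to 193 (21) after LBP, 38 to 381 (119) for LBP without radiation, 169 to 1241 (645) with it and 0 to 20 (2) for the interaction. Same-numbered libraries did not deviate together (r from -0.16 to 0.11), so the numbers were not taken to pair them. DESeq2 gave no adjusted p for CXCL2 and CXCL10 in either LBP comparison, nor for CXCL2, CXCL3, CXCL10 and CXCL11 for radiation after LBP. It could not call them there. With 2 or 3 libraries a group, depth limits CXCL2, CXCL5, CXCL10 and CXCL14.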
